A study of Bos taurus with 8 samples.

Results

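The translation initiation and elongation factors were taken as all genes on a bovine microarray whose symbol starts with EIF or EEF, with the EIF2AK kinases left out because they modify a factor and are not factors themselves. By this rule 37 of the 7056 genes with a named probe were members, 30 with an EIF and 7 with an EEF symbol, read by 38 probes. The samples were granulocytes from the peripheral blood of 4 cows, and each cow gave 1 sample in each group. The group before ET (n = 4) was taken on day 7 of the oestrous cycle, when the cows were not pregnant and had not yet received an embryo. The group Day 21 pregnant (n = 4) was taken from the same cows on day 21 of a pregnancy begun by embryo transfer (ET). No other treatment, strain or age is named in the labels. Day, pregnancy, the transfer itself and calendar time differ together between the groups, so they cannot be told apart.

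Initiation factors bring the small ribosomal subunit, the initiator tRNA and the capped mRNA together and find the start codon. Elongation factors then deliver aminoacyl-tRNAs to the ribosome and move it along the message. Cells adjust this machinery mainly at the recycling of eIF2 by its exchange factor eIF2B and at the binding of the cap by eIF4E. Mature neutrophils, the main granulocytes, are short-lived cells that stay able to make cytokines and other proteins on stimulation.

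The array carries 60-base oligonucleotide probes, and the sequences below are those of the 4 genes with the smallest p-values, of the eIF4G scaffold listed as EIF4GI and of EEF1A1, the member with 2 probes. EIF5A and EIF4GI are shown whole, the next 3 by their first 30 bases, and the EEF1A1 probes by 30 bases around the AATAAA hexamer, which is in capitals.
EIF5A: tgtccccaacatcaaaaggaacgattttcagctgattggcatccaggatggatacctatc
EIF4GI: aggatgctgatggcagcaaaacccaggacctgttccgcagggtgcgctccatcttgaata
EIF2B5: cagaggctggaactacagtattcttcccac
EIF2D: cccctaaacctggcaagaagaaatgacaga
EIF1AD: cctggatggggacaaggcagggcccctctc
EEF1A1, first probe: caggttctaggaaaAATAAAagatgctgga
EEF1A1, second probe: tggataattacaAATAAAccactaaacatt
AATAAA and ATTAAA are the letters of the common polyadenylation signals near the 3′ end of mRNAs. As written 5′ to 3′, 12 of the 38 member probes held AATAAA or ATTAAA, that is 31.6%, against 14.9% of all 15208 probes. On the opposite strand the hexamers were found in 2.63% of member probes and 7.03% of all probes. Beside EEF1A1, these were the probes of EEF1B2, EEF2, EIF1, EIF1AX, EIF2B2, EIF2B4, EIF3G, EIF4E, EIF4G3 and EIF6. Such a match describes the letters of the probe only. The 2 EEF1A1 probes shared no run of bases longer than 7. Over 1080 pairs of probes of different members, or of probes only described as translation factors, the longest shared run on either strand was 11 bases. The place and strand of each probe on its transcript were not checked here.

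The labelled cell type was set against marker genes before the members were read. Of 12 mature neutrophil markers on the array (such as CXCR1 and S100A8), 11 were well above background on all 8 arrays. Of the 6 red cell markers on the array, HBB and SLC4A1 were above background on none, HBA on 3, EPB42 on 4, AHSP on 7 and ALAS2 on all 8. The summed linear level of the neutrophil markers, in multiples of each array's 75th percentile, was 212 to 280 on day 7 and 86 to 270 on day 21, and 11 of the 12 were lower on day 21, with a median log2 change of -0.35. The medians of these markers within cows 1 to 4 were -1.13, -0.61, 0.05 and 0.02, and CXCR1, FCGR3A and MMP9 were higher in 3 of 4 cows although their mean was lower. The summed level of 6 monocyte and macrophage markers was 4.67 to 8.94 on day 7 and 8.56 to 14.1 on day 21, and 6 of 6 were higher, with a median change of 0.81. Neutrophil precursor granule genes had sums of 0.494 to 1.15 on day 7 and 0.709 to 1.27 on day 21, and 5 of 7 were lower (median -1.08). Both eosinophil markers were lower (median -0.82, sums of 17.2 to 49.8 and 3.09 to 37.4). Of the 9 T cell markers tested 6 were lower (median -0.45, sums of 6.89 to 15 and 9.29 to 13.4), and of 8 NK and cytotoxic markers 7 were higher (0.29, sums of 2.37 to 9.83 and 3 to 13.4). Of 5 B and plasma cell markers 3 were higher (0.22, sums of 15.3 to 31.7 and 15.4 to 19.7). Both basophil (median 0.58) and both platelet markers (0.41) were higher, as were 2 of 3 red cell markers tested (0.23). The part of these marker changes in the results on translation factors was not tested. Spots marked as outliers were left out of the sums. S100A12, the neutrophil marker with the highest mean level, and the T cell marker CD3E had no change within cow 2 for this reason. A sum without such a marker is lower for that alone, so the neutrophil and T cell ranges do not compare like for like between days. The lowest neutrophil sum, 86, may be low for this reason. In bulk RNA, fewer cells of a type and less RNA per cell cannot be told apart. The day 21 array of cow 2 lay alone on its slide and had 129 spots marked as outliers by the scanner software, against 0 to 12 on the other 7 arrays.

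Most factors had a slightly higher level on day 21, and none passed the test across all genes. Levels are log2 signals relative to each array's 75th percentile, and changes are day 21 minus day 7. Of the 37 members, 34 had a signal well above background on 4 or more arrays and were tested, 32 of them on all 8 arrays. The log2 change was above 0 for 29 of these 34, that is 85.3%, against 55.9% of all 10459 tested probes. The median change of the members was 0.29, against 0.08 for all tested probes and 0.09 for all 5227 named genes tested. The limma fit, with Benjamini-Hochberg adjustment over all tested probes, called 0 of the 34 members at an adjusted p under 0.05, and it called 0% of the background, where the smallest adjusted p was 0.219. Before adjustment, 4 members had p under 0.05 with a higher level on day 21, namely EIF5A, EIF2B5, EIF2D and EIF1AD (11.8%, background 4.99%), and 0 were lower (background 4.41%).

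With cow as a block in the limma fit 7 members were higher at an unadjusted p under 0.05 (20.6%, background 9.86%) and 0 lower (background 8.97%). These 7 were EIF5A, EIF3M, EEF2KMT, EIF2B5, EIF2D, EEF1A1 and EIF4GI. Their adjusted p-values by limma with the block were 0.17 to 0.233, so none passed there either. EIF1AD was at an unadjusted p of 0.0519 with the block. The unblocked count of 4 rested on few arrays. It was 2 without the day 7 array of cow 2 or the day 21 array of cow 4, and 1 without the day 21 array of cow 2, the day 7 array of cow 3 or the day 7 array of cow 4. It was 1 without cow 2 and 0 without cow 3 or cow 4, where the background share was also lower, at 1.9%, 2.91% and 1.73%. Over the 5 arrays named, the background share was 2.56% to 4.18%. When limma weighted the arrays by their agreement, which gave the day 21 array of cow 4 a weight of 7.02 and those of cow 1 weights of 0.293 and 0.295, EIF1AD, EIF2B5 and EIF5A had adjusted p-values under 0.05. These were 8.82% of the members, while 1700 probes, or 16.3% of the background, were so called.

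**Figure D1:**
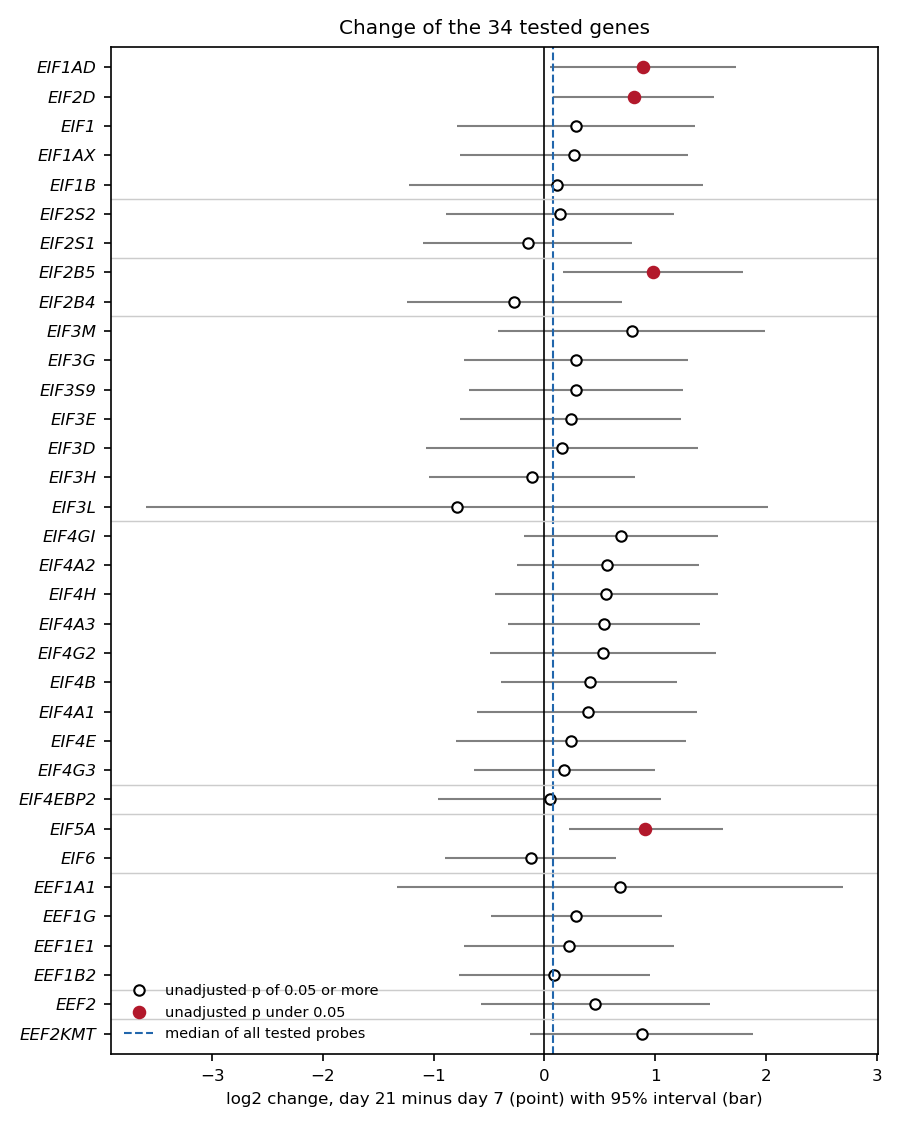
Log2 change (day 21 minus day 7, horizontal axis) of the 34 tested translation factor genes with its 95% interval from the limma fit, ordered by role and separated by grey lines; filled points have an unadjusted p under 0.05. Points lie right of 0 for 29 of 34 genes, and only the 4 filled ones have an interval above 0.

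The cows differed in the size of the change. The median change of the members was 0.06 in cow 1, 0.56 in cow 2, 0.42 in cow 3 and 0.47 in cow 4, against -0.14, 0.20, 0.07 and 0.07 for all tested probes. In cow 3, 29 of 34 members were higher on day 21 (85.3%, against 54.7% of all tested probes), and in cow 4 it was 29 of 33 (87.9% against 54.1%). In cow 1 it was 20 of 34 (58.8% against 44%), and in cow 2 it was 19 of 32, a share of 59.4% near the 56.8% of all probes. Higher values in 4 of 4 cows were found for 10 of the 32 members with a value on every array (31.2%, background 15.7%), namely EIF5A, EIF2B5, EIF2D, EEF2KMT, EIF4GI, EIF3M, EIF4A2, EIF4G2, EEF1A1 and EEF1E1. EIF2S1 was the only member lower in 4 of 4 cows (3.12%, background 14.1%). The groups did not overlap for EIF5A, EIF2B5 and EIF2D, all higher on day 21 (9.38%, background 3.09%), and for 0 members lower on day 21 (background 2.58%).

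**Figure D2:**
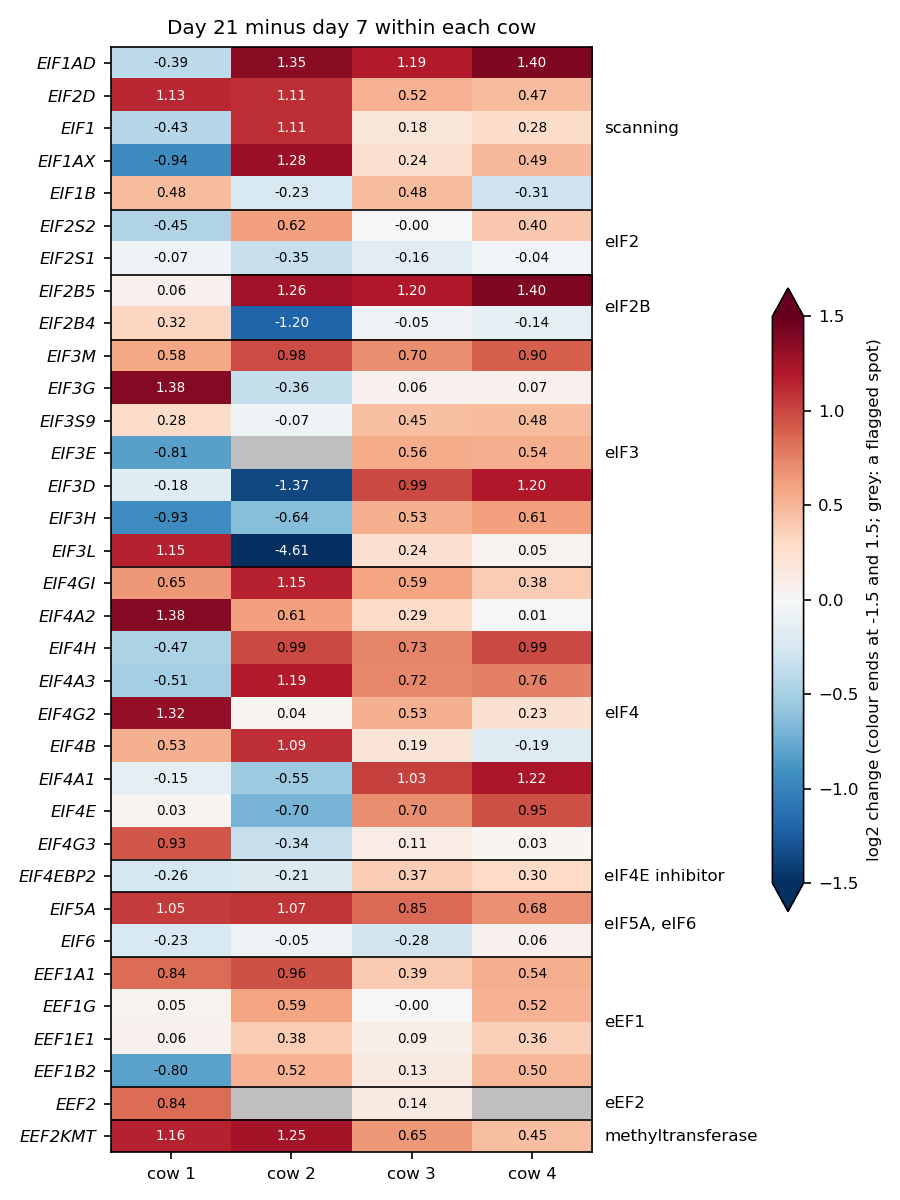
Log2 change of each tested member (rows, by role) within each of the 4 cows (columns), red for higher and blue for lower on day 21; grey cells have a spot marked as an outlier. Cows 3 and 4 are mostly red, while the eIF3 rows are mixed and cow 2 holds the deepest blue cell, EIF3L at -4.61.

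The first role is the choice of the start codon and the delivery of the initiator tRNA by factors that act on the scanning ribosome. All 5 tested members of this group had changes above 0, with a median of 0.29, and 2 of them were below an unadjusted p of 0.05. Over all tested probes, beside which the counts by role and by list can be read, 55.9% had changes above 0, 4.99% were higher and 4.41% lower at that threshold. EIF2D, a factor that can bring tRNA to the ribosome without GTP and takes part in reinitiation, had day 7 levels of 0.65, 0.74, 0.72 and 0.65 in cows 1 to 4 and day 21 levels of 1.78, 1.85, 1.24 and 1.12. The day 7 levels were nearly equal, with an SD of 0.05, and every day 21 level was above every day 7 level. Its change was 0.81 ± 0.33 (SE, limma, n = 4 per group), or 1.75-fold in level, and did not pass the adjusted test (unadjusted p = 0.0327, adjusted p = 0.504). EIF1AD, a protein with a domain like that of eIF1A and no settled part in initiation, had day 7 levels of 1.97, 1.12, 0.98 and 0.97 and day 21 levels of 1.59, 2.47, 2.17 and 2.37. Cow 1 had the highest day 7 and the lowest day 21 level, and the groups overlapped there only. Its change was 0.89 ± 0.38 (unadjusted p = 0.0395, adjusted p = 0.514 by limma), and within cow 1 it was -0.39.

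The other scanning factors had small changes with wide spread. EIF1, which keeps the ribosome open while it scans, had a change of 0.29 ± 0.49, with -0.43 in cow 1 and 1.11 in cow 2. EIF1AX, the partner of eIF1 on the small subunit, had a change of 0.27 ± 0.46, and its cows ran from -0.94 to 1.28. EIF1B, a close relative of EIF1, had a change of 0.11 ± 0.60, and cow 3 stood above the other cows on both days, at 2.90 on day 7 and 3.39 on day 21. EIF5, the activator of GTP hydrolysis by eIF2, was above background on 1 of 8 arrays, a day 7 array, and was not tested. Whether its probe reads EIF5 mRNA well was not tested, so the low signal does not show that the mRNA was absent.

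The eIF2 complex carries the initiator tRNA, and its alpha subunit is the target of stress kinases. EIF2S1, the alpha subunit, had levels of -1.20, -1.67, -0.38 and -1.34 on day 7 and -1.27, -2.02, -0.54 and -1.37 on day 21 in cows 1 to 4. It was lower in all 4 cows, by 0.04 to 0.35, and the cows differed from each other far more than the days did, so the groups overlapped. The change was -0.15 ± 0.43 (unadjusted p = 0.728, adjusted p = 0.935 by limma). EIF2S2, the beta subunit, had a change of 0.14 ± 0.47, with 2 cows higher and 2 lower. A probe described only as similar to subunit 3, the gamma subunit, had a change of 0.28 ± 0.33 and was higher in 4 of 4 cows.

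The eIF2B complex reloads eIF2 with GTP, and the largest change in level among the members was that of its catalytic subunit. EIF2B5, the epsilon subunit, had day 7 levels of 2.74, 2.61, 2.09 and 2.10 in cows 1 to 4 and day 21 levels of 2.80, 3.87, 3.29 and 3.50. The lowest day 21 level, that of cow 1, was just above the highest day 7 level, which was also that of cow 1. The change was 0.98 ± 0.36, or 1.97-fold (unadjusted p = 0.0218, adjusted p = 0.498 by limma), cow 1 standing at 0.06 while the others ran from 1.20 to 1.40. The regulatory subunit EIF2B4 had day 7 levels of 1.80, 1.71, 1.35 and 0.80 and day 21 levels of 2.12, 0.51, 1.29 and 0.66. It was lower in 3 of 4 cows, mainly in cow 2, and the groups overlapped, with a change of -0.27 ± 0.44 (unadjusted p = 0.553 by limma). EIF2B2, the beta subunit, was not well above background on any of the 8 arrays.

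**Figure D3:**
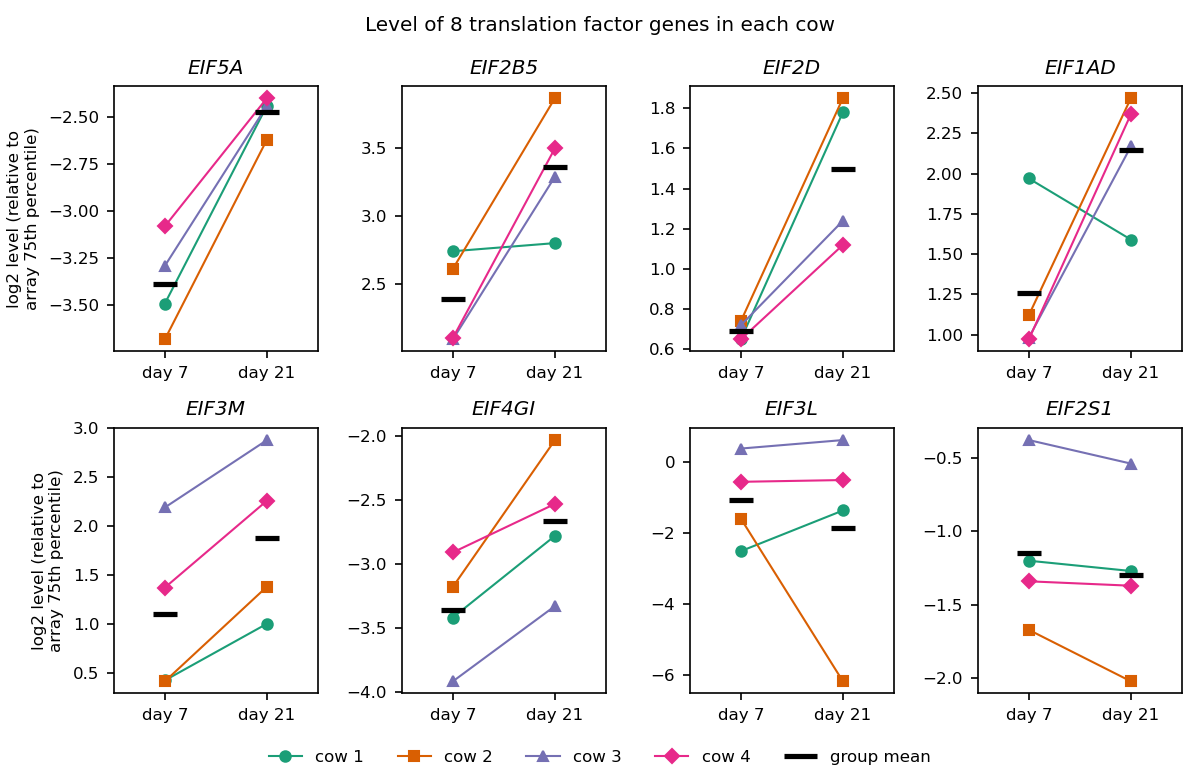
Log2 level (vertical axis, relative to the array's 75th percentile; each panel has its own range) of 8 members on day 7 and day 21, with 1 line per cow and a black bar for the mean of the 4 cows. EIF5A, EIF2B5 and EIF2D do not overlap between days, EIF1AD is lower on day 21 in cow 1 only, EIF3L stands at -6.19 on day 21 in cow 2, and EIF3M, EIF4GI and EIF2S1 have 4 lines of the same direction.

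The eIF3 complex is the large scaffold that binds the small subunit and links it to eIF4G. Of its 7 tested members 5 had changes above 0, with a median of 0.24, but the 4 cows were not alike. The median over the subunits was 0.28 in cow 1, -0.50 in cow 2, 0.53 in cow 3 and 0.54 in cow 4. EIF3M was the subunit with the smallest p, with day 7 levels of 0.42, 0.41, 2.19 and 1.37 in cows 1 to 4 and day 21 levels of 1.00, 1.38, 2.88 and 2.26. Each cow was higher on day 21, by 0.58 to 0.98, on top of a difference between cows that was larger than this, so the groups overlapped. The change was 0.79 ± 0.54 (unadjusted p = 0.177 by limma), and with cow as a block its standard error was 0.24 and the unadjusted p 0.015 (adjusted p = 0.193).

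EIF3L, a peripheral subunit, had levels of -2.51, -1.59, 0.39 and -0.55 on day 7 and of -1.36, -6.19, 0.63 and -0.50 on day 21. The day 21 spot of cow 2 was not above background and lay far below every other value, while the other cows were higher on day 21 by 0.05 to 1.15. The change was -0.79 ± 1.27 over all arrays and 0.65 without that array. On the same array EIF3D, which can itself bind the cap of some mRNAs, stood at -0.29 against 1.08 in that cow on day 7, although it was higher on day 21 by 0.99 in cow 3 and 1.20 in cow 4. EIF3H, a subunit with a domain shared by proteasome lid proteins, had levels of 5.70, 4.66, 4.73 and 4.33 on day 7 and 4.77, 4.02, 5.25 and 4.94 on day 21. It was lower in cows 1 and 2 and higher in cows 3 and 4, the groups overlapped, and its change was -0.11 ± 0.42. The RNA-binding subunit EIF3G had a change of 0.29 ± 0.46, with 1.38 in cow 1 and the rest from -0.36 to 0.07. EIF3E, measured in 3 cows because of a spot marked as an outlier in cow 2 on day 21, had a change of 0.24 ± 0.44. The probe listed under the older symbol EIF3S9, that of the scaffold subunit EIF3B, was above background on 5 of 8 arrays and had a change of 0.29 ± 0.43. A probe described as subunit 1 (eIF-3a) but carrying no symbol had a change of 0.84 ± 0.41 (unadjusted p = 0.0659 by limma), with 3 cows higher. Other probes without a symbol had smaller changes. That described as similar to subunit 8 had one of 0.40 ± 0.35, with 4 cows higher. That described as similar to subunit 12 had one of 0.18 ± 0.35, with 3 cows higher.

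The eIF4 factors bind the cap and unwind the 5′ end of the mRNA. All 9 tested members of this group had changes above 0, from 0.18 to 0.69 with a median of 0.53. The medians within cows 1 to 4 were 0.53, 0.61, 0.59 and 0.38, so cow 1 was within the range of the others here. None of the 9 was below an unadjusted p of 0.05. Probes of this group without a symbol went the other way. That described as similar to eIF4E had a change of -0.58 ± 0.61 and was higher in 1 of 4 cows. That described as similar to eIF4G3 had a change of -0.26 ± 0.94 and was higher in 2 of 4 cows. The scaffold listed as EIF4GI, an older name of eIF4G1, had levels of -3.42, -3.18, -3.92 and -2.91 on day 7 and -2.78, -2.03, -3.33 and -2.53 on day 21. All 4 cows were higher on day 21, by 0.38 to 1.15, and the groups overlapped because cow 3 was low on both days. The change was 0.69 ± 0.40, or 1.61-fold (unadjusted p = 0.11, adjusted p = 0.627 by limma), and with cow as a block the unadjusted p was 0.0334.

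The other scaffolds were EIF4G2, which works without binding eIF4E, and EIF4G3, a paralog of eIF4G1. EIF4G2 had a change of 0.53 ± 0.46, with all 4 cows higher but cow 2 by only 0.04, and EIF4G3 had a change of 0.18 ± 0.37. The eIF4A helicases unwind structure in the 5′ untranslated region. EIF4A2 had a change of 0.57 ± 0.37 and each cow was higher on day 21, cow 4 by 0.01 and cow 1 by 1.38. EIF4A1 had a change of 0.39 ± 0.45, with cows 3 and 4 at 1.03 and 1.22 but cows 1 and 2 at -0.15 and -0.55. EIF4A3, the helicase of the exon junction complex on spliced mRNA, had a change of 0.54 ± 0.39, with cow 1 at -0.51 and the other cows at 0.72 to 1.19. EIF4H and EIF4B both stimulate the helicase. EIF4H had a change of 0.56 ± 0.46, with cow 1 at -0.47, and EIF4B one of 0.41 ± 0.36, with cow 4 at -0.19. The cap-binding protein EIF4E had a change of 0.24 ± 0.47, with cow 2 at -0.70 and cows 3 and 4 at 0.70 and 0.95. EIF4EBP2, which holds eIF4E away from the scaffold, was level on average, at -1.99, -2.84, -3.68 and -2.49 on day 7 and -2.25, -3.05, -3.31 and -2.19 on day 21. It was lower in 2 cows and higher in 2, with overlapping groups, a change of 0.05 ± 0.45 and a 95% interval from -0.96 to 1.05.

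EIF5A, a factor that carries the modified amino acid hypusine and helps the ribosome past stretches such as runs of proline, had the smallest p of all members. Its levels were -3.49, -3.68, -3.29 and -3.08 on day 7 and -2.44, -2.62, -2.44 and -2.40 on day 21. Every day 21 level was above every day 7 level, and each cow was higher on day 21 by 0.68 to 1.07. The change was 0.91 ± 0.31, or 1.88-fold, with a 95% interval from 0.22 to 1.61 (unadjusted p = 0.0149, adjusted p = 0.471 by limma). With cow as a block in limma its standard error was 0.24 and the unadjusted p 0.00767 (adjusted p = 0.17). Group accounted for 87.8% of the sum of squares of this gene over the 8 arrays and cow for 9.52%. EIF6, which keeps the large ribosomal subunit from joining too early, had levels of 3.95, 3.25, 3.19 and 3.17 on day 7 and 3.72, 3.21, 2.91 and 3.23 on day 21. It was lower in 3 of 4 cows with overlapping groups, cow 1 stood highest on both days, and its change was -0.12 ± 0.35.

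Slides held both arrays of a cow for cows 1, 3 and 4, with the day 7 array of cow 2 beside those of cow 1, so slide largely coincides with cow. With slide as a fixed block in limma, EIF5A had a change of 0.92 (unadjusted p = 0.0137), EIF2B5 by 0.83 (unadjusted p = 0.0461), EIF2D by 0.73 (unadjusted p = 0.0406) and EIF1AD by 0.79 (unadjusted p = 0.0818). Within slide 1, which compares the day 21 array of cow 1 with the day 7 arrays of cows 1 and 2, the changes were 1.15 for EIF5A, 1.08 for EIF2D, 0.12 for EIF2B5 and 0.04 for EIF1AD. With this block, which gives the lone day 21 array of cow 2 no part in the comparison, 33 of the 34 members had changes above 0 and their median was 0.35, against 54.5% and 0.05 for all tested probes.

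All 6 tested members with an EEF symbol had changes above 0, with a median of 0.38 and none below an unadjusted p of 0.05. The largest of these changes, 0.88, was that of EEF2KMT, which is a methyltransferase and not an elongation factor. EEF1A1, the factor that brings aminoacyl-tRNA to the ribosome, differed widely between cows. Its first probe read 1.14, 2.51, 5.12 and 3.85 in cows 1 to 4 on day 7 and 1.98, 3.48, 5.51 and 4.39 on day 21. The 4 cows kept the same order on both days, over a 15.8-fold range on day 7, and each was higher on day 21, by 0.39 to 0.96. The change was 0.68 ± 0.91 (unadjusted p = 0.469 by limma) without the block, and with cow as a block its standard error was 0.25 and the unadjusted p 0.0307 (adjusted p = 0.229). The second probe read 0.24, 2.25, 3.84 and 3.47 on day 7 and 2.16, 3.13, 3.91 and 3.83 on day 21, a change of 0.81 ± 0.75. It ordered the cows as the first did and was higher on day 21 in all 4, by the most in cow 1, at 1.92. Cow accounted for 93.7% of the sum of squares of the first probe. Over the 32 members with a value on every array the median share was 59.7% for cow (3 degrees of freedom) and 6.07% for group (1 degree of freedom), against 56.9% and 11.5% over all probes so measured.

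**Figure D4:**
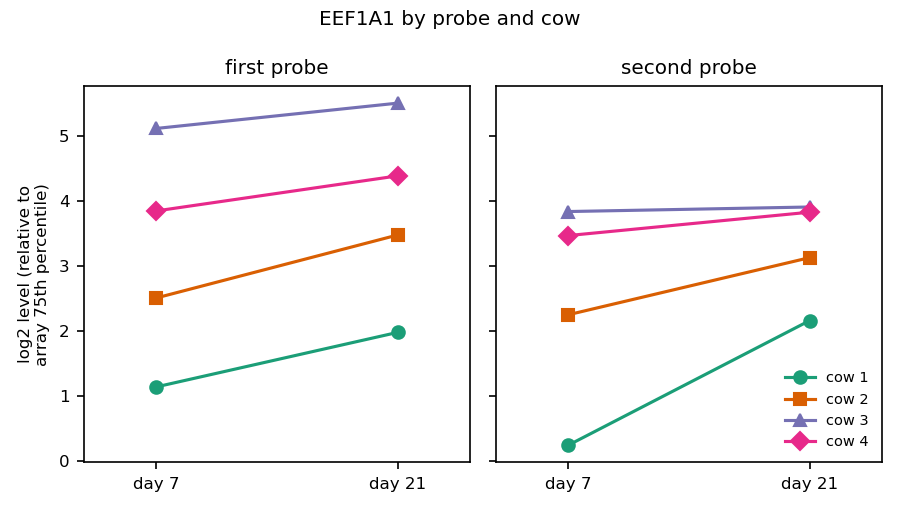
Log2 level of EEF1A1 (vertical axis, relative to the array's 75th percentile) read by its 2 probes, on day 7 and day 21, with 1 line per cow. On both probes and both days the order from low to high is cow 1, cow 2, cow 4 and cow 3, and every line slopes upward.

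The eEF1B subunits recharge eEF1A with GTP. The probe named EEF1G, the gamma subunit, had levels of -3.73, -3.46, -3.25 and -3.24 on day 7 and -3.68, -2.87, -3.26 and -2.72 on day 21. Its letters look like the reverse complement of coding sequence, and whether it reads EEF1G mRNA was not tested. Cows 2 and 4 were higher on day 21 by 0.59 and 0.52 while cows 1 and 3 differed by 0.05 or less, so the groups overlapped, and the change was 0.29 ± 0.35 (unadjusted p = 0.422 by limma). EEF1B2, the beta subunit, had a change of 0.09 ± 0.39, with cow 1 at -0.80 and the other 3 cows at 0.13 to 0.52. EEF1E1, a small protein of the multisynthetase complex, had a change of 0.22 ± 0.43 and was higher in 4 of 4 cows by 0.06 to 0.38. A probe without a symbol has a shortened description that reads as similar to elongation factor 1 ep. It had a change of 0.06 ± 0.37 and was higher in 3 of 4 cows. EEF1A2, the form typical of muscle and nerve, was not well above background on any of the 8 arrays.

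EEF2, which moves the ribosome by a codon, was measured on 6 arrays, because its spots on the day 7 array of cow 4 and the day 21 array of cow 2 were marked as outliers. It stood at 4.54, 5.03 and 5.69 in cows 1 to 3 on day 7 and at 5.39, 5.83 and 5.44 in cows 1, 3 and 4 on day 21. The groups overlapped, both cows measured on each day were higher on day 21, and the change was 0.46 ± 0.45 (unadjusted p = 0.337 by limma). With the outlier-marked spots kept, the change of EEF2 was 0.05. The probe linked by its gene identifier to EEF2KMT, a methyltransferase that acts on eEF2, had levels of -2.88, -1.84, -1.26 and -1.40 on day 7 and -1.73, -0.58, -0.61 and -0.95 on day 21. It was higher on day 21 in all 4 cows, by 0.45 to 1.25, with overlapping groups. The change was 0.88 ± 0.45, with an unadjusted p of 0.0804 by limma without a block, the nearest above 0.05. With cow as a block in limma its standard error was 0.27 and the unadjusted p 0.015 (adjusted p = 0.193). The array's own text for this probe names a different gene, ALG1, so its assignment is uncertain.

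The genes that act on these factors were read from 8 lists of translation and its control, each given with its 2 genes of smallest p. The background is again 55.9% above 0, with 4.99% higher and 4.41% lower at an unadjusted p under 0.05. In the list of eIF2 kinases and the integrated stress response, in which phosphorylated eIF2 alpha slows initiation and raises stress genes, 10 of 12 tested genes had changes above 0 with a median of 0.38, 3 of them at an unadjusted p under 0.05, and 1 was lower at that threshold. IMPACT, an inhibitor of the kinase GCN2, had the smallest p of the list, with a mean of -0.15 ± 0.47 on day 7 and -1.84 ± 0.40 on day 21 (SD, n = 4). Its change of -1.68 ± 0.38 was lower in 4 of 4 cows (unadjusted p = 0.00107, adjusted p = 0.31 by limma). SESN2, a sestrin raised by stress that restrains mTORC1, had a change of 2.14 ± 0.83 and was higher in 4 of 4 cows (unadjusted p = 0.0271, adjusted p = 0.502 by limma). EIF2AK2, the kinase PKR that phosphorylates eIF2 alpha, had changes of -0.21, 2.09, 1.65 and 2.17 in cows 1 to 4. EIF2B5 and EIF1AD likewise had their lowest change in cow 1. So did other members, such as EIF1, EIF1AX, EIF3H and EIF4H, but not EIF5A or EIF2D, so this is not particular to EIF2B5 and EIF1AD. The medians of all tested members, at 0.06, and of all tested probes, at -0.14, were also lowest in cow 1. A link of these genes to EIF2AK2 was not tested.

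In the list of mTORC1 and MNK control, 3 of 8 tested genes had changes above 0 and the median was -0.17. The medians within cows 1 to 4 were nevertheless above 0, at 0.61, 0.32, 0.31 and 0.19, so the list had no clear direction. Those of all tested probes were -0.14, 0.20, 0.07 and 0.07. TBC1D7, a subunit of the TSC complex, had a change of 1.06 ± 0.37 (unadjusted p = 0.0158, adjusted p = 0.476 by limma). RHEB, the GTPase that activates mTORC1, had one of 1.07 ± 0.39 (unadjusted p = 0.0184, adjusted p = 0.494 by limma), and both genes were higher in 4 of 4 cows.

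In the list of scanning helicases and reinitiation factors, 4 of 5 tested genes had changes above 0 with a median of 0.15. DENR, which forms with MCTS1 a complex related to EIF2D, had a mean of -1.65 ± 0.35 on day 7 and -0.55 ± 0.19 on day 21 (SD, n = 4). Its change was 1.10 ± 0.33 and was higher in 4 of 4 cows (unadjusted p = 0.00741, adjusted p = 0.419 by limma), while MCTS1 had a change of -0.04 ± 0.33. DHX9, an RNA helicase, had a change of 0.38 ± 0.35. In the list of termination, rescue and recycling, 4 of 6 tested genes had changes above 0 with a median of 0.25. ETF1, the release factor that reads stop codons, had a change of 1.42 ± 0.49 and was higher in 4 of 4 cows (unadjusted p = 0.0151, adjusted p = 0.472 by limma). GTPBP1, a GTPase related to elongation factors, had one of 0.58 ± 0.43.

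Of the enzymes that modify eIF5A and eEF2, 1 of 4 tested genes had a change above 0 and the median was -0.16. DPH2, which starts the diphthamide modification of eEF2, had levels of -0.03 ± 0.16 on day 7 and -1.86 ± 1.13 on day 21 (SD, n = 4). It was lower in 4 of 4 cows, with cow 1 at -0.32 and the others at -2.36 to -2.29, a change of -1.83 ± 0.53 (unadjusted p = 0.00556, adjusted p = 0.4 by limma). DHPS, which makes the first step of hypusine on eIF5A, had a change of 0.34 ± 0.37. The poly(A)-binding list had 3 of 4 changes above 0 (median 0.19), and its smallest p-values were those of LARP4B at 0.41 ± 0.50 and PABPN1 at -0.22 ± 0.35. The mitochondrial translation factors had 4 of 4 above 0 (median 0.21), with the smallest p-values for MTRF1L at 0.41 ± 0.34 and TSFM at 0.27 ± 0.41. The cytosolic aminoacyl-tRNA synthetases and their scaffold had 7 of 12 above 0 (median 0.10), with the smallest p-values for AIMP2, a scaffold protein of their complex, at 0.96 ± 0.58 and QARS1 at 0.45 ± 0.32. None of the genes in these last 3 lists was below an unadjusted p of 0.05.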

How the data were processed

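Total RNA of granulocytes was labelled with Cy3 and read on 8 one-colour Agilent arrays, per the labels. The authors deposited scanner tables made with Agilent Feature Extraction 9.5, per the submitters' processing notes. Their processed signal is a background-subtracted intensity, per the file headers. A deposited series table holds log2 values of the same arrays. They equal the log2 processed signal minus a constant per array within 0.00485, with column medians of -3.53 to -3.29, and that constant is within 0.0439 of the percentile used here. The sources used here give no genome build.

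Control spots (536 of 15744) and spots marked as outliers were left out, and log2 intensity minus each array's 75th percentile was used. Probes were named by accession or gene identifier through a RefSeq gene table (ARS-UCD2.0, from which only names were taken), else by gene name, else by the symbol in the description. Of 15208 probes 7407 had a symbol, and 9 more were described as translation factors without a symbol by this rule. The brightest probe stood for a gene.

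Probes well above background on at least 4 of 8 arrays were fitted with limma 3.58.1 in R 4.3.3 without a block, and p-values were adjusted by Benjamini-Hochberg over 10459 probes. The array number limits precision: the median standard error of a member's change was 0.441. Source names give the same cow in both groups. Deviations from the group means correlated at 0.476, 0.172, 0.752 and 0.436 between a cow's samples and at -0.474 to 0.302 between cows, so the pairing rests on the source names. Blocks, scalings, background corrections, filters, array weights and left-out arrays were tried as alternatives.

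Every member is named by role. Values per array are given for the 6 members of smallest p in each direction (5 were lower), the smallest p of each role and the member with several probes. From each related list the 2 genes of smallest p are given by their change. EIF2AK2 and MCTS1 were named after their values were seen. EIF4GI and EIF3S9 keep the file's symbols. The role groups as first set did not hold these symbols, and both were placed with eIF4 and eIF3 afterwards. The members and lists were chosen with earlier results of these data known.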

Additional observations from a re-analysis of the deposited data

Results flagged for a closer look

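In 65 groups of 4 arrays, 4 members had a sample set apart from the other 3 by more than Dixon's 95% limit, and chance alone flags about 1 in 20 groups. EIF1AD was high on day 7 in cow 1, at 1.97 against 0.97 to 1.12 in the other cows. EIF6 was high in the same sample, at 3.95 against 3.17 to 3.25. EIF1B was high on day 21 in cow 3, at 3.39 against 1.15 to 1.34. EIF4G3 was low on day 21 in cow 3, at -2.71 against -2.26 to -2.19. EIF1B and EIF4G3 of cow 3 stood at 2.90 and -2.82 on day 7.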

How the results depend on the processing

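The fit described called 0 members and 0 probes after adjustment. With array weights 3 members (8.82%) and 1700 probes (16.3%) were called, and with slide as a random block 12 probes and 0 members. Leaving out arrays or cows gave 0 to 41 probes and 0 members, with 41 probes without the day 21 array of cow 1 and 36 without cow 1. The count of members higher at an unadjusted p under 0.05, which was 4, became 2 without a filter on dim probes and 11 with array weights, and leaving out arrays or cows gave 0 to 5. The share of all tested probes moved with it, from 4.99% to 2.98% without the filter, 18.1% with array weights and 1.73% to 9.42% with arrays or cows left out. With cow as the replicate block it was 7, and the block changed no adjusted call and left the median at 0.29. No setting put a member lower at an unadjusted p under 0.05.

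The median change of the members was 0.20 to 0.40 over the processing settings, where that of all tested probes was -0.11 to 0.09, and 0.24 to 0.41 with arrays or cows left out. Without EIF1AD, EEF2KMT and EIF4EBP2, a choice made after seeing the data, 3 of 31 members were higher at an unadjusted p under 0.05 and the median stayed at 0.29.

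Of 34 members, 18 kept their direction in all 23 settings, and EIF3S9 did in the 22 that measured it. With slide as a fixed block the changes of EIF2B4, EIF2S1, EIF3H and EIF3L became 0.09, 0.01, 0.18 and 0.36. EIF3H was 0.04 with slide as a random block and 0.39 with array weights, which put EIF1B at -0.28. EEF1B2 was -0.00023 with normexp and quantile scaling, and EIF3E was -0.11 with outlier-marked spots kept. With arrays or cows left out, changes of both signs were seen for EEF1B2 (-0.09 to 0.39), EIF1AX (-0.08 to 0.67), EIF1B (-0.42 to 0.51), EIF2B4 (-0.59 to 0.04), EIF2S1 (-0.41 to 0.10), EIF2S2 (-0.12 to 0.45), EIF3D (-0.22 to 0.67), EIF3E (-0.02 to 0.65), EIF3G (-0.08 to 0.53), EIF3H (-0.35 to 0.17), EIF3L (-1.62 to 0.65), EIF4E (-0.01 to 0.67), EIF4EBP2 (-0.26 to 0.30), EIF4G3 (-0.07 to 0.39) and EIF6 (-0.28 to 0.06). Apart from settings that remove arrays or probes, the cause was not tested. With 4 samples per group, most changes seen here were smaller than the median SD of the members within a group, 0.587. The median standard error of a change was 0.441 without a block and 0.304 with cow as a block.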
